A study of Mus musculus with 6 samples.

Results

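The clustered Hox genes of the mouse were described here in muscle stem cells of Setdb1 knockout and control mice. They were taken as every gene whose symbol is Hox, a cluster letter from a to d and a number. This rule gave 39 of the 55487 genes in the count table, with 11 in the HoxA cluster, 10 in HoxB, 9 in HoxC and 9 in HoxD. RNA was sequenced from 6 libraries of 2 groups. The 3 knockout (KO) libraries came from mice labelled Setdb1 KO that received tamoxifen, a drug used to switch on inducible recombinases, and the 3 control libraries came from mice labelled WT that received oil. All mice were 10 weeks old, and cells were taken 60 h after cardiotoxin (CTX), a venom toxin that destroys muscle fibres and sets off regeneration. Every KO animal had tamoxifen and no control animal did, so the deletion and the drug cannot be told apart. The labels name neither the recombinase, nor its promoter, nor the deleted exon, nor the limb or muscle used. They call the libraries biological replicates without saying whether each is 1 animal.

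Hox genes encode homeodomain transcription factors that give cells their position along the body axis. In mammals they sit in 4 clusters on different chromosomes, and their order in a cluster follows the order in which they are used from head to tail. Genes at the same place in different clusters are called paralogues and share a number, and groups 9 to 13 also pattern the limbs. Adult limb cells, muscle stem cells among them, keep part of the Hox pattern of their origin. Polycomb and trithorax proteins are known to keep Hox genes off and on. Setdb1 methylates histone H3 at lysine 9, a separate mark of silent chromatin.

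The promoters below are shown because they pair a low CpG content with many counts, or a high CpG content with few. Each is the 250 bases before an annotated start, 5′ to 3′ on the gene's strand, from the RefSeq promoter table on GRCm38.p6, in windows free of annotated exons. Capitals mark CG dinucleotides, the sites where DNA can be methylated. Hoxa9, the member with the most counts, has 3 of them at chr6:52227371-52227620 (minus strand), and its neighbour Hoxa10 has 7 at chr6:52240855-52241104 (minus strand), before its most upstream start. A second Hoxa10 promoter, at chr6:52234940-52235189 and not printed, has 20, above the median of the Hox promoters. Hoxa13, with 6 counts in all, has 35 at chr6:52260881-52261130 (minus strand), and Hoxd13, with 5 counts, has 31 at chr2:74667975-74668224 (plus strand). Low CpG content also occurs with few counts, in promoters not printed. A promoter of Hoxd11, with 3 counts, has 2, and that of Hoxd4, with 1 count, has 3.
Hoxa9: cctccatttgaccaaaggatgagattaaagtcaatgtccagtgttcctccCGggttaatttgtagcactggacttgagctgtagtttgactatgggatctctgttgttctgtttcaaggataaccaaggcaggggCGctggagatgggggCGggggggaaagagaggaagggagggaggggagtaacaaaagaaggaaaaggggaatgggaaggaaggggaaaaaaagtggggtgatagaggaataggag
Hoxa10: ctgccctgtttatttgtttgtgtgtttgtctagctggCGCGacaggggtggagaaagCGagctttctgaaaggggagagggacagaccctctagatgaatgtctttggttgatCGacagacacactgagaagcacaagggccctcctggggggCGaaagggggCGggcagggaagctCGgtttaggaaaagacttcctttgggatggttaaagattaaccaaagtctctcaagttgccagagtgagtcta
Hoxa13: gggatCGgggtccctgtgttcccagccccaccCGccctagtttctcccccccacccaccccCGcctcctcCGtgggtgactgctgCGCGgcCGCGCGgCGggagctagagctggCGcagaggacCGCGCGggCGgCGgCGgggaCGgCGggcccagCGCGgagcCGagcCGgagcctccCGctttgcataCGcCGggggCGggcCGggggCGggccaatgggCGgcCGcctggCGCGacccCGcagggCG
Hoxd13: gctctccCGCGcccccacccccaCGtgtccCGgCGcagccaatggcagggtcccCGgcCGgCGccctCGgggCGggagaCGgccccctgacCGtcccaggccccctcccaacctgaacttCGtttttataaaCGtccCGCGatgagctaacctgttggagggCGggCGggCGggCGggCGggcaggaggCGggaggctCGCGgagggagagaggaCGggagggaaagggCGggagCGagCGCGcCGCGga

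The RefSeq table held 24 promoters for 22 of the 39 members and none for Hoxc9, Hoxc10 or Hoxc11. These 24 had a median of 12.5 CG dinucleotides in 250 bases (quartiles 7 and 20), against 6 (quartiles 2 and 16) in all 32851 promoters of the table. Across the 24 promoters the CG count and the gene's total count were only weakly related (Spearman's rho -0.15, a description over promoters of 22 genes that share clusters). The contrast between the 4 printed promoters thus does not extend to the whole set. The letters CCAAT, searched on both strands, were present in 14 of the 24 and in 33.8% of all promoters. Of the 4 printed here, those of Hoxa13 and Hoxd13 hold them, and those of Hoxa9 and Hoxa10 do not. The second Hoxa10 promoter, not printed, also holds them. Other letters searched were CANNTG, in 17 of the 24 (66.2% of all promoters), TTTAT in 9 (37.3%) and TATAAA in 4 (12.4%). TGACAG was in 2 (15.9%) and TGATTNAT in 2 (2.82%).

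The libraries held 4052569, 4909787 and 5178823 counts in the KO and 4568845, 4716006 and 5690844 in the control. One ribosomal RNA gene took 28.6% to 38.4% of them. Setdb1 was at 14.6 ± 1.88 CPM (counts scaled to a common library size) in KO cells and 35.8 ± 4.26 CPM in control cells (SD, n = 3 each), with a log2 fold change of -1.30 (edgeR adjusted p = 2.092e-04). The defining muscle stem cell genes were present in every library, with 112 to 129 counts of Pax7 in KO libraries and 103 to 164 in control libraries. All 8 markers of these cells were tested, and 1 of them, the myogenic regulator Myod1, rose, where 2.22% of all genes did (log2 fold change 1.04, edgeR adjusted p = 7.791e-04), with their sum at 1430 to 1854 CPM in KO and 1257 to 1335 CPM in control libraries. The summed markers of fibro-adipogenic cells, another muscle cell type that can carry Hox transcripts, ran from 1160 to 1729 CPM in KO libraries and from 563 to 1311 CPM in control libraries, with all 5 tested of 6 markers higher in KO on average and 0 past the threshold. Neutrophil markers summed to 1.06 to 696 CPM in KO libraries and to 0 to 1974 CPM in control libraries, the highest value being that of control library 3. Mural cell markers were all tested, and 2 of 5 rose in KO cells, where 2.22% of all genes did. These were Acta2 (log2 fold change 0.72), whose call was lost in 7 of 16 alternatives with an adjusted p of up to 0.1612, and Tagln (1.51). The mural sums were 98.1 to 118 CPM in KO and 54.3 to 81.1 CPM in control libraries. Of the other marker lists, summed endothelial levels were 10.2 to 11.97 CPM in KO and 3.97 to 11.01 CPM in control libraries, macrophage 8.78 to 36.6 and 8.35 to 89.2 CPM, and tendon 30.9 to 35.8 and 20.7 to 36.8 CPM. Schwann cell markers summed to 1.17 to 3.72 CPM in KO and 1.04 to 1.66 CPM in control libraries, and lymphocyte markers to less than 1 CPM in every library. The part of these cell types in the Hox values was not tested. In bulk RNA, fewer cells that carry a transcript and less of it per cell cannot be told apart.

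KO library 1 stood apart in a way that touches rare transcripts. It had a count in 30363 genes, against 18737 to 19951 in each of the other 5 libraries. Genes of olfactory, vomeronasal and trace amine receptors, which serve smell and pheromone sensing and were chosen as a gauge after seeing the data, gave 3897 counts there, against 235 and 385 in the other KO libraries and 283, 246 and 336 in the control libraries. Per kilobase of exon this was 0.189 CPM in KO library 1 and 0.0088 to 0.0137 CPM in the other 5. The same library had a count in 37 of the 39 Hox genes, and the others had one in 21 to 26. The HoxA, HoxB and HoxD sums and the sum of paralogue groups 1 to 5 are therefore given with and without it.

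The cells used mainly groups 7 to 10 of HoxA and groups 9 to 11 of HoxC, and little of HoxB and HoxD. Of 1761 Hox counts in all, HoxC held 47.4%, HoxA 43.8%, HoxD 4.997% and HoxB 3.86%. Every member had at least 1 count in some library, but 17 had 10 or more over the 6 libraries and 22 had fewer. These 17 were 7 HoxA genes, 8 of the 9 HoxC genes, Hoxb8 and Hoxd8. In HoxA the level was highest at groups 7 to 10 and in HoxC at groups 9 to 11, and both clusters were low again at group 13.

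**Figure D1:**
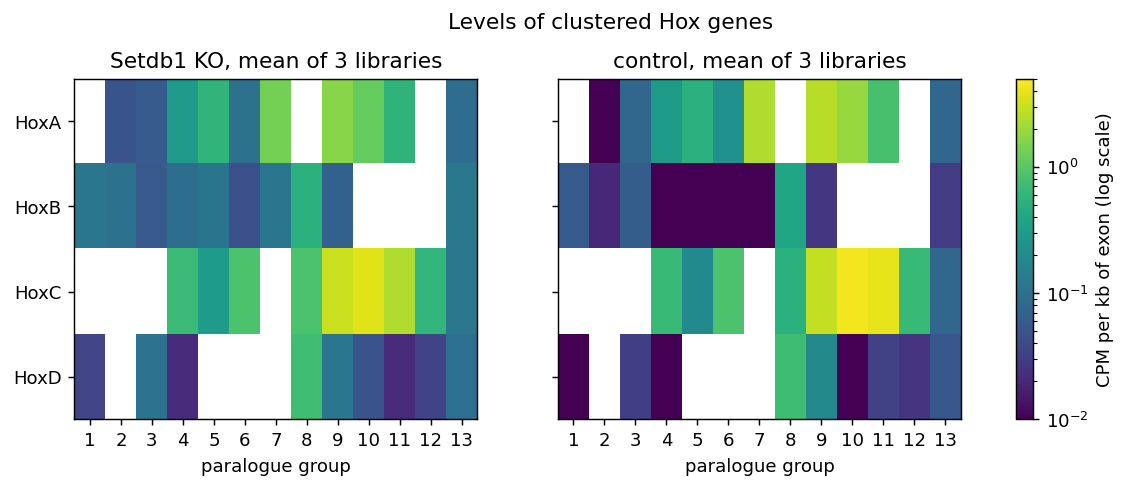
Mean level of 38 of the Hox genes in Setdb1 KO (left) and control (right) libraries (n = 3 each), by cluster (rows) and paralogue group (columns). The colour is CPM per kb of exon on a log scale, values under 0.01 take the lowest colour, and white marks positions with no gene or with none shown. Hoxc9, Hoxc10 and Hoxc11 were the brightest in both panels, with Hoxa7, Hoxa9 and Hoxa10 next.

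Levels were compared between genes per kilobase of annotated exon, since longer transcripts gather more reads. By this measure Hoxc10 was highest, at 3.73 ± 0.13 CPM per kb in KO cells and 4.49 ± 0.75 in control cells (SD, n = 3 each). In KO cells the order went on with Hoxc9 (3.01 ± 0.29), Hoxc11 (2.39 ± 0.15), Hoxa9 (1.65 ± 0.31), Hoxa7 (1.37 ± 0.42) and Hoxa10 (1.15 ± 0.22). In control cells it went on with Hoxc11 (3.95 ± 1.38), Hoxc9 (2.85 ± 0.52), Hoxa9 (2.59 ± 0.46), Hoxa7 (2.40 ± 0.65) and Hoxa10 (1.93 ± 0.63). Hoxc9 and Hoxc11 thus stood in opposite order in the 2 groups. In control cells the ranges of mean ± SD of neighbours in this order overlapped at each step, so that no single step there was larger than the spread. In KO cells the ranges of Hoxc10, Hoxc9, Hoxc11 and Hoxa9 did not overlap each other, whereas those of Hoxa9, Hoxa7 and Hoxa10 did. The remaining members over 0.4 CPM per kb, averaged over the 6 libraries, were Hoxc6 (0.86), Hoxd8 (0.74), Hoxa11 and Hoxc8 (both 0.70), Hoxc4 (0.68), Hoxc12 (0.63), Hoxa5 (0.56) and Hoxb8 (0.46).

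Only 8 members passed the low-count filter of the test, namely Hoxa7, Hoxa9, Hoxa10, Hoxc6, Hoxc9, Hoxc10, Hoxc11 and Hoxd8. The filter lay between Hoxd8, with 59 counts, and Hoxc8, with 55, which was left out with the other 30. With edgeR and adjustment over 11224 genes, 0 of the 8 passed a threshold of 0.05, where 2.83% of all genes did (0.615% lower and 2.22% higher in KO). At an unadjusted p under 0.05, 4 of the 8 were lower in KO, against 7.64% of all genes, and 0 were higher, against 10.1%. DESeq2 and limma-voom also called 0 Hox genes, and at an unadjusted p under 0.05 they gave 1 and 2 lower. That count was also 1 when KO library 1, KO library 3, control library 2 or control library 3 was left out, and 0 were higher in each case. The median log2 fold change of the 8 was -0.46, with 5 negative and 3 positive, where the median of all genes tested was 0.01 and 49.1% were negative. These 8 are the members with the most counts and do not stand for all 39.

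HoxA held 3 of those 4 genes. Hoxa9 (ENSMUSG00000038227, chromosome 6, 52223100 to 52231089, minus strand, GRCm38), a group 9 factor that acts in limb and blood development, had 35, 53 and 38 counts in KO libraries, against 60, 82 and 77 in control libraries. Scaled by library size these were 9.31, 10.9 and 7.43 CPM in KO and 12.02, 17.1 and 14.2 CPM in control. All 3 KO libraries lay below all 3 control libraries. The means were 9.21 ± 1.73 CPM in KO and 14.5 ± 2.56 CPM in control (SD, n = 3 each). The log2 fold change was -0.65 (SE 0.21, unadjusted p = 0.007573, edgeR adjusted p = 0.1206).

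Hoxa10 (chromosome 6, 52231197 to 52240854, minus strand), the next gene toward the posterior end and a regulator of the hindlimb and reproductive tract, was at 3.99, 4.31 and 2.93 CPM in KO libraries and at 4.41, 6.05 and 8.50 CPM in control libraries. The groups did not overlap, although the highest KO value and the lowest control value lay close together. Its log2 fold change was -0.76 (SE 0.33, unadjusted p = 0.03565, edgeR adjusted p = 0.2404).

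Hoxa7 (chromosome 6, 52214491 to 52221854, minus strand), on the anterior side of Hoxa9, was at 3.19, 5.34 and 3.32 CPM in KO libraries and at 4.81, 8.35 and 7.57 CPM in control libraries. Here the groups overlapped, since KO library 2 lay above control library 1. The log2 fold change was -0.79 (SE 0.32, unadjusted p = 0.0273, edgeR adjusted p = 0.2165). An antisense gene, Hoxaas3, overlaps 20.4% of the exon length of Hoxa7, and the strand setting of the counting is not given in the sources used here, so reads of the overlapping stretch cannot be assigned.

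The outer HoxA genes were measured on fewer counts. Hoxa11, known from limb and kidney patterning, had 5, 6 and 7 counts in KO libraries, against 7, 16 and 5 in control libraries, and only control library 2 stood out. Its pooled ratio, KO over control and scaled for depth, was 0.71 (exact 95% interval 0.37 to 1.33). Such intervals treat each count as an independent molecule and cover counting error only. Hoxa5, a regulator of lung and thoracic development, had 15 counts in KO and 15 in control libraries, a ratio of 1.11 (0.50 to 2.43). Hoxa4 had 6 and 7 counts (ratio 0.95, 0.26 to 3.29) and Hoxa3 had 5 and 7 (ratio 0.79, 0.20 to 2.89). At this depth these intervals contain both no difference and the size seen in Hoxa9. Hoxa2, Hoxa6 and Hoxa13 had 1, 4 and 6 counts in all 6 libraries together.

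In HoxC the pattern differed along the cluster. Hoxc11 (chromosome 15, 102954427 to 102957708, plus strand), a gene of hindlimb and lumbosacral identity, was at 5.05, 4.93 and 4.49 CPM in KO libraries and at 4.81, 9.19 and 9.98 CPM in control libraries. The KO libraries were close to each other, whereas control library 1 lay among them and the other 2 control libraries far above. The log2 fold change was -0.73 (SE 0.30, unadjusted p = 0.02956, edgeR adjusted p = 0.223). Without control library 1 it was -1.0 (edgeR adjusted p = 0.07986), the lowest adjusted p of any Hox gene under any setting tried.

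Hoxc10 (chromosome 15, 102966796 to 102971893, plus strand), a gene of lumbar and hindlimb identity, was at 6.92, 7.39 and 7.04 CPM in KO libraries and at 10.2, 7.93 and 7.57 CPM in control libraries. The groups did not overlap, but the gap between the highest KO and the lowest control library was small. The log2 fold change was -0.27 (SE 0.23, edgeR adjusted p = 0.5911). Hoxc5 is annotated with 1 exon stretch shared with Hoxc10, covering 8.7% of the exon length of Hoxc10, so a few reads may be split between them.

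Hoxc9 (chromosome 15, 102976439 to 102985099, plus strand), a gene of thoracic identity, was at 7.98, 6.57 and 7.43 CPM in KO libraries and at 5.81, 6.68 and 8.31 CPM in control libraries, and the groups overlapped fully. Its log2 fold change was 0.07 (SE 0.25, edgeR adjusted p = 0.9153). Hoxc6, which is known from thoracic and forelimb levels, was at 1.596, 1.44 and 3.13 CPM in KO libraries and at 2.20, 2.71 and 1.29 CPM in control libraries, with 1 library of each group out of line with its fellows. Its log2 fold change was 0.02 (SE 0.47, edgeR adjusted p = 0.9883).

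Hoxc4, Hoxc5, Hoxc8 and Hoxc12 fell below the filter of the test, and all of their ratio intervals spanned 1. Hoxc8 had 14, 10 and 8 counts in KO libraries, against 11, 4 and 8 in control libraries, with a ratio of 1.54 (exact 95% interval 0.87 to 2.75). Hoxc4 had 24 counts in KO and 26 in control libraries, a ratio of 1.02 (0.56 to 1.85). Hoxc5 gave 1.47 (0.57 to 3.96) and Hoxc12 gave 0.99 (0.36 to 2.72). The Hoxc5 ratio rests on KO library 1, with 7, 2 and 3 counts in KO libraries, against 1, 5 and 3 in control libraries. A Hoxc5 ratio without that library was not worked out. Hoxc13, a hair and nail gene at the posterior end, had 7 counts in all.

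**Figure D2:**
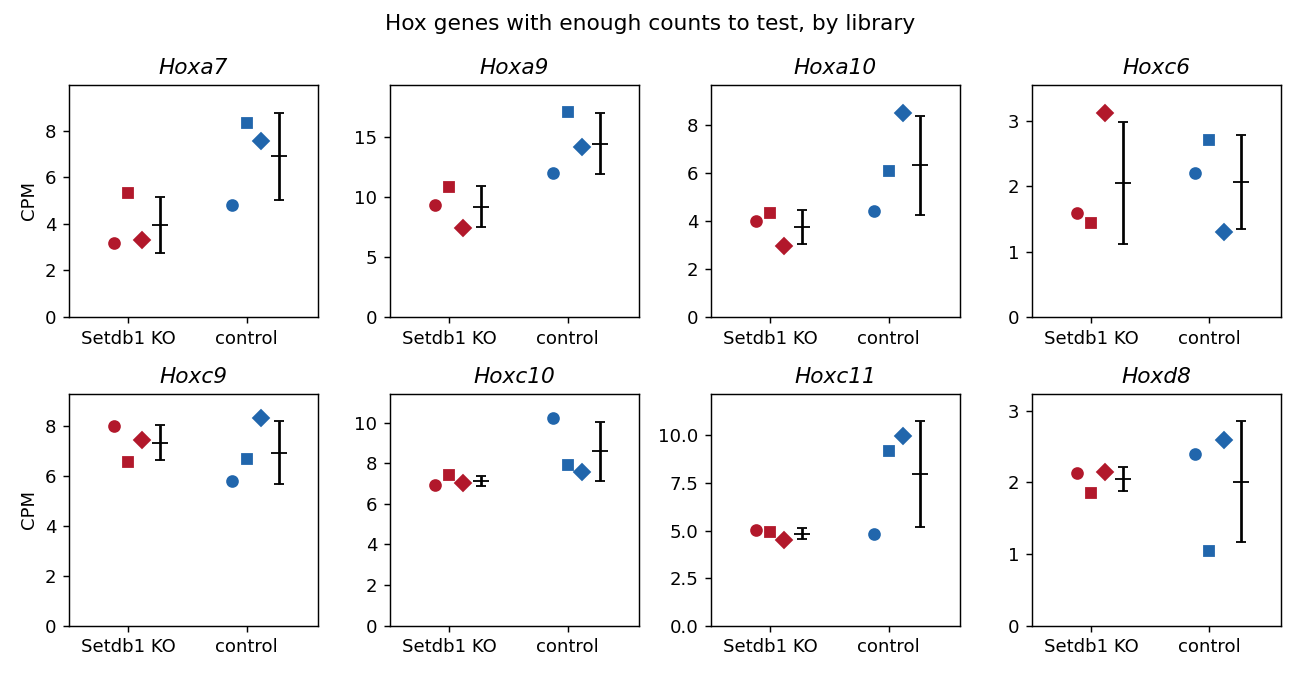
CPM of the 8 Hox genes that passed the filter of the test, in each Setdb1 KO (red, left) and control (blue, right) library, with circles, squares and diamonds for libraries 1, 2 and 3. Black bars give the mean and SD (n = 3), and each axis starts at 0. KO libraries lay below all control libraries for Hoxa9, Hoxa10 and Hoxc10. Control library 1 was the lowest control library for Hoxa7, Hoxa9, Hoxa10, Hoxc9 and Hoxc11.

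Among the 8 tested genes, then, 3 had KO libraries below all control libraries (2 in HoxA and 1 in HoxC) and 0 had them above, where 11.5% and 12.8% of all genes tested did so. Counting error on the pooled counts was smaller than the difference for 4 members. The ratios were 0.58 for Hoxa7 (exact 95% interval 0.41 to 0.81), 0.64 for Hoxa9 (0.51 to 0.80), 0.58 for Hoxa10 (0.41 to 0.82) and 0.60 for Hoxc11 (0.44 to 0.81). For the other 13 members with 10 or more counts the interval included 1, at 0.63 to 1.09 for Hoxc10 and 0.79 to 1.38 for Hoxc9.

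**Figure D3:**
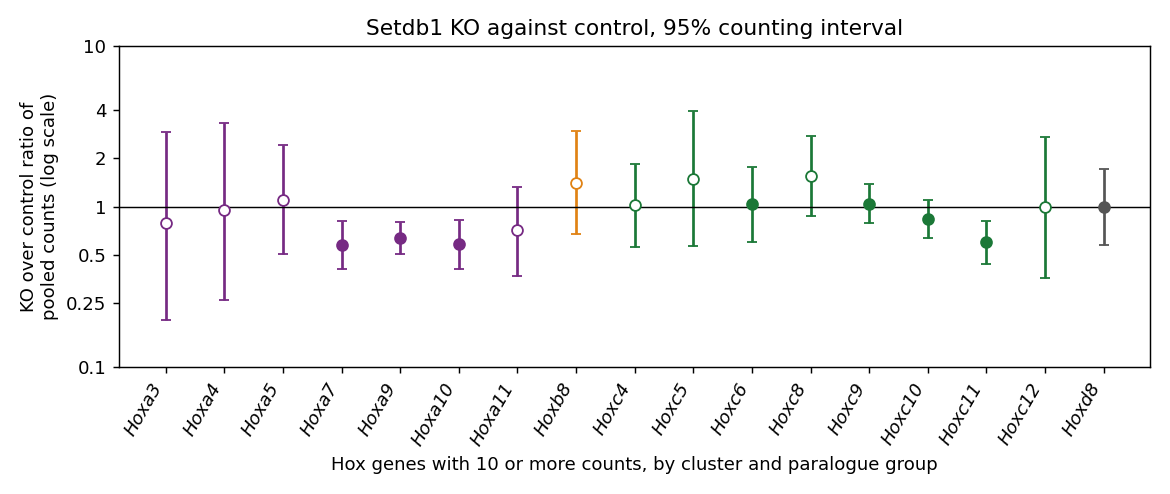
Ratio of pooled counts, Setdb1 KO over control and scaled for depth, on a log axis for the 17 Hox genes with 10 or more counts, coloured by cluster (HoxA purple, HoxB orange, HoxC green, HoxD grey). Bars are exact 95% intervals for counting error, and open points are genes below the filter of the test. Intervals lie wholly below 1 for Hoxa7, Hoxa9, Hoxa10 and Hoxc11.

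Summed over a cluster, HoxA transcripts were at 21.0, 24.0 and 17.6 CPM in KO libraries and at 25.2, 38.2 and 32.5 CPM in control libraries. The groups did not overlap, and the means were 20.9 ± 3.22 CPM in KO and 32.0 ± 6.50 CPM in control (SD, n = 3 each), a log2 ratio of -0.62. The ratio was also -0.62 without KO library 1. Most of this lay in groups 7 to 11 of the cluster, at 18.2 ± 3.38 CPM in KO and 29.6 ± 6.28 CPM in control. HoxC summed to 27.4 ± 2.09 CPM in KO and 30.3 ± 2.50 CPM in control with overlapping groups, a log2 ratio of -0.14. Its groups 9 to 11 alone did not overlap, at 19.3 ± 0.59 CPM in KO and 23.5 ± 2.53 CPM in control. The sums are descriptions, since the members were chosen with results known.

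Within a library, the count of Hoxa9 can be set against that of its paralogue Hoxc9, which removes any scaling between libraries. Hoxa9 had 1.17, 1.66 and 1.00 counts per Hoxc9 count in KO libraries and 2.07, 2.56 and 1.71 in control libraries. The groups did not overlap, by a margin narrow beside the spread within them. The same ratio for Hoxa10 over Hoxc10 ran from 0.42 to 0.58 in KO and from 0.43 to 1.12 in control libraries, and for Hoxa11 over Hoxc11 from 0.25 to 0.30 and from 0.09 to 0.36, with overlap in both. Summed over the clusters, HoxA had 0.71, 0.93 and 0.66 counts per HoxC count in KO libraries and 0.92, 1.19 and 1.04 in control libraries, with overlap between KO library 2 and control library 1. Pooled over libraries, HoxA took 38.2% of all Hox counts in KO libraries and 47.9% in control libraries, and HoxC 50% and 45.4%.

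By paralogue group across clusters, group 10 was the only one of 13 whose libraries did not overlap. It summed to 11.2, 11.7 and 9.97 CPM in KO libraries and to 14.6, 13.99 and 16.1 CPM in control libraries, with means of 10.9 ± 0.89 and 14.9 ± 1.07 CPM. Nearly all of its counts were those of Hoxa10 and Hoxc10, given above. Among all single genes tested, 11.5% had KO libraries below all control libraries. Group 9 summed to 16.9 ± 1.71 CPM in KO and 21.8 ± 3.23 CPM in control, and group 11 to 6.22 ± 0.40 and 10.0 ± 3.45 CPM. Groups 9 to 13 together were at 35.9 ± 3.39 CPM in KO and 48.1 ± 6.86 CPM in control, without overlap. Groups 6 to 8 were at 12.3 ± 1.339 and 13.7 ± 0.65 CPM, with overlap. Groups 1 to 5 were at 7.08 ± 3.78 CPM in KO and 4.95 ± 1.88 CPM in control, and without KO library 1 the KO mean was 4.90 CPM.

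HoxB and HoxD were nearly silent apart from their group 8 genes. Hoxb8, a trunk gene, had 6, 10 and 3 counts in KO libraries, against 8, 6 and 1 in control libraries (ratio 1.40, exact 95% interval 0.67 to 2.96). Hoxd8 was at 2.13, 1.85 and 2.15 CPM in KO libraries and at 2.40, 1.04 and 2.59 CPM in control libraries, with overlap and a log2 fold change of 0.01 (SE 0.46, edgeR adjusted p = 0.9953). Each of the 17 other genes of the 2 clusters had between 1 and 9 counts in all. Over the whole set of 39, 8 members were at 0 in every control library (Hoxa2, Hoxb4, Hoxb5, Hoxb6, Hoxb7, Hoxd1, Hoxd4 and Hoxd10), and 0 were at 0 in every KO library. Without KO library 1, 12 members were at 0 in both remaining KO libraries. None of these 8 had more than 4 counts in KO libraries, so no fold is given.

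These rare counts came mostly from the KO library that stood apart. The 17 genes had 33, 3 and 5 counts in KO libraries, against 12, 7 and 3 in control libraries. Per kilobase of exon this was 0.191 CPM in KO library 1, next to 0.189 for the chemosensory receptor genes of the same library. The other KO libraries had 0.0134 and 0.0213, with receptor genes at 0.0088 and 0.0137, and the control libraries had 0.0524, 0.0318 and 0.0121, with receptor genes at 0.0103, 0.0094 and 0.0113. All 10 HoxB genes had a count in KO library 1, and 2 to 4 of them in each other library. The HoxB sum was 3.54 ± 3.24 CPM in KO and 1.62 ± 1.14 CPM in control, a log2 ratio of 1.13, and without KO library 1 the ratio was 0.09. The HoxD sum was 3.37 ± 1.72 CPM in KO and 2.88 ± 0.97 CPM in control, with a log2 ratio of 0.23 that changed sign to -0.27 without that library. HoxA and HoxC, at 0.681 and 1.44 CPM per kb in KO library 1, lay well above its receptor genes.

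**Figure D4:**
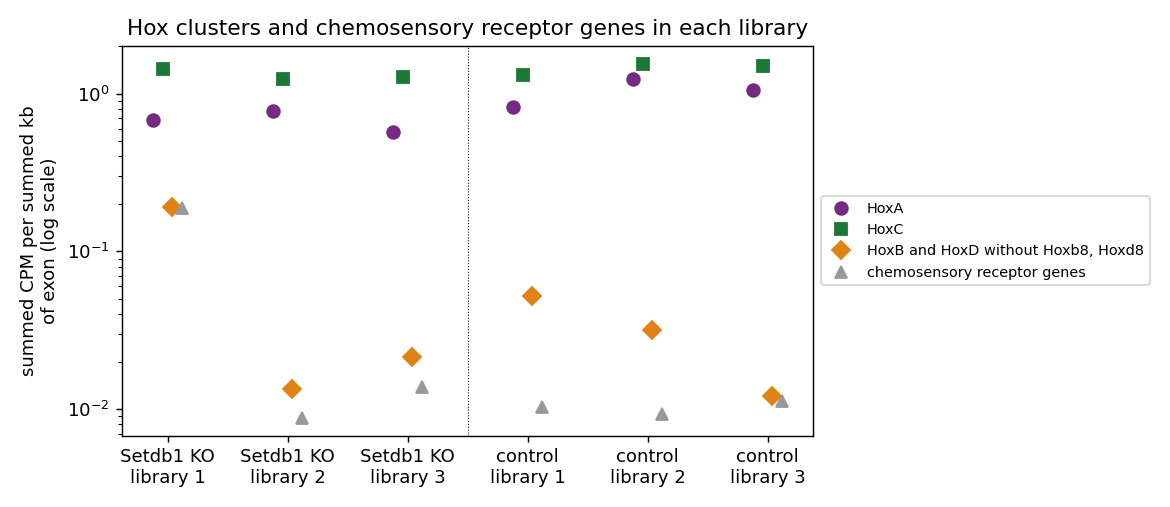
Summed CPM per summed kb of exon, on a log axis, for HoxA, HoxC, the 17 HoxB and HoxD genes other than Hoxb8 and Hoxd8, and 1479 chemosensory receptor genes, in the 3 Setdb1 KO libraries (left) and the 3 control libraries (right). In KO library 1 the HoxB and HoxD genes and the receptor genes lie together near 0.19, and HoxA and HoxC lie above them in every library.

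The clusters also hold 46 noncoding and other annotated genes, of which 18 had any count and 2 had 10 or more. Hotair (chromosome 15, 102944062 to 102947730, minus strand), a long noncoding RNA between Hoxc11 and Hoxc12 that is known to bind Polycomb proteins, had 0, 3 and 2 counts in KO libraries, against 7, 6 and 8 in control libraries. Every KO library was below every control library, and the pooled ratio was 0.26 (exact 95% interval 0.08 to 0.72). Hoxa11os (chromosome 6, 52244393 to 52249799, plus strand), the antisense RNA of Hoxa11, had 0, 0 and 0 counts in KO libraries, against 2, 5 and 4 in control libraries. The pooled ratio of Hoxa11os was 0 (exact 95% interval 0 to 0.44), on 11 control counts in all. KO library 1 had 0 counts of both. Both fell below the filter of the test. Both also reached 10 counts only through the control libraries, in which they were higher, with 5 KO counts of Hotair and 0 of Hoxa11os. Their difference is therefore a description of genes partly chosen by it. Of all tested genes, which had passed that filter, 11.5% had KO libraries below all control libraries. Hoxa11os overlaps 35.0% of the exon length of Hoxa11 on the other strand, and whether strand was used in counting is not given in the sources used here, so reads of the 2 genes cannot be told apart there.

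**Figure D5:**
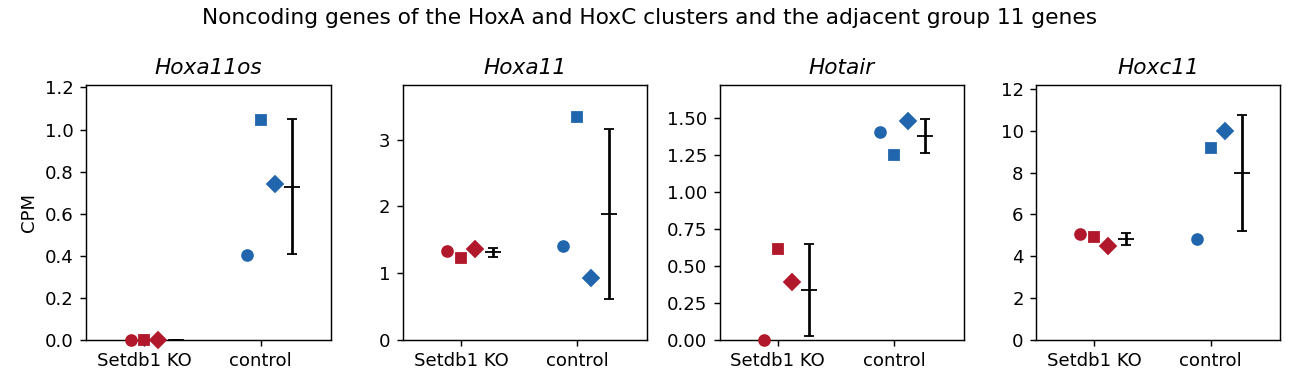
CPM of Hoxa11os and Hotair, each followed by its adjacent group 11 gene (Hoxa11 and Hoxc11), in every Setdb1 KO (red, left) and control (blue, right) library, with circles, squares and diamonds for libraries 1, 2 and 3 and black bars for mean and SD (n = 3). Hoxa11os was at 0 in all 3 KO libraries, and Hotair at 0.62 CPM or less in KO against 1.25 CPM or more in control.

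Of the 24 nearest protein-coding genes, 3 on each side of each cluster, 19 were tested and 0 passed the threshold. At an unadjusted p under 0.05, 5 were lower in KO (7.64% of all genes) and 1 was higher (10.1%). The flanks of HoxA, HoxB and HoxC each hold a gene of the HP1 family, whose products bind histone H3 methylated at lysine 9. Cbx3, beside HoxA, was at 158, 237 and 213 CPM in KO libraries and at 257, 282 and 256 CPM in control libraries (log2 fold change -0.38, edgeR adjusted p = 0.1822). Cbx1, beside HoxB, was at 40.4, 52.4 and 45.7 CPM in KO libraries and at 60.3, 72.2 and 61.1 CPM in control libraries (log2 fold change -0.48, edgeR adjusted p = 0.06572). Cbx1 passed in 1 of 16 alternatives, with structural RNA and mitochondrial genes removed (edgeR adjusted p = 0.04975). In both genes all KO libraries lay below all control libraries, as in 11.5% of all genes tested. The same was so for Hnrnpa1, Hnrnpa3, Nfe2l2 and Mtx2 among these flanking genes. In Calcoco1 and Snx10 all KO libraries lay above all control libraries, as in 12.8% of all genes tested. Cbx5, beside HoxC, was at 192 ± 18.9 CPM in KO and 230 ± 43.1 CPM in control, with overlap (log2 fold change -0.26, edgeR adjusted p = 0.3664). Hnrnpa1, an RNA-binding protein gene beside HoxC, its relative Hnrnpa3 beside HoxD, and Nfe2l2, the gene of an oxidative stress regulator also beside HoxD, had log2 fold changes of -0.34, -0.38 and -0.25. Calcoco1, an autophagy receptor gene beside HoxC, was at 15.0 ± 1.33 CPM in KO and 9.61 ± 1.40 CPM in control (log2 fold change 0.64, edgeR adjusted p = 0.08827). The other 12 tested, Snx10, Skap2, Hibadh, Tax1bp1, Atp5g1, Snx11, Atf7, Atp5g2, Smug1, Atp5g3, Lnpk and Mtx2, lay between the fold changes of Cbx1 and Calcoco1.

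The partners of Hox proteins are homeodomain proteins of the Pbx, Meis and Pknox families, which bind DNA together with them. Of 9 genes 7 were tested and 0 passed, with 2 negative and 5 positive fold changes. Pknox1 was at 31.9 ± 3.54 CPM in KO and 29.6 ± 5.75 CPM in control (log2 fold change 0.11, edgeR adjusted p = 0.76), and Pknox2 at 25.3 ± 6.67 and 22.8 ± 4.17 CPM (0.14, edgeR adjusted p = 0.7559).

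Among 33 Polycomb genes, whose products silence Hox clusters through histone H3 lysine 27 methylation and histone H2A ubiquitination, 32 were tested, 1 fell and 0 rose, against 0.615% and 2.22% of all genes. The 1 that fell was Suz12, a core subunit of Polycomb repressive complex 2. It was at 75.0, 95.1 and 113 CPM in KO libraries and at 155, 146 and 128 CPM in control libraries, without overlap (log2 fold change -0.60, SE 0.15, edgeR adjusted p = 0.03852). The call was lost in 7 of 16 alternatives, where the adjusted p reached 0.164. At an unadjusted p under 0.05, 9 of the 32 were lower (7.64% of all genes). Fold changes were negative for 25 of the 32, where 49.1% of all genes were negative, with a median of -0.17. Summed over the list, levels were 1183 to 1297 CPM in KO libraries and 1446 to 1516 CPM in control libraries, without overlap. Of the 16 trithorax group genes, which keep Hox genes active, all were tested and 0 passed. Negative fold changes were found in 15 of them, where 49.1% of all genes were negative, and the median was -0.21. Among the 16, 4 were lower at an unadjusted p under 0.05 (7.64% of all genes). Trithorax sums were 974 to 1171 CPM in KO libraries and 1116 to 1341 CPM in control libraries, with overlap. The 2 with the highest levels were Psip1, at 160 ± 15.8 CPM in KO and 206 ± 3.54 CPM in control (log2 fold change -0.36, edgeR adjusted p = 0.1223), and Hcfc1, at 146 ± 10.1 and 170 ± 14.7 CPM (-0.22, edgeR adjusted p = 0.3531).

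Genes of retinoic acid signalling, which induces Hox genes in the embryo, were tested for 7 of 16 members and 0 passed, with 5 positive and 2 negative fold changes and a median of 0.42. Summed over the list, levels were 76.6 to 87.2 CPM in KO libraries and 64.7 to 74.1 CPM in control libraries, without overlap. At an unadjusted p under 0.05, 1 was higher (10.1% of all genes), the receptor gene Rarg, named after its values were seen, at 11.3 ± 1.84 CPM in KO and 7.29 ± 1.84 CPM in control (log2 fold change 0.63, edgeR adjusted p = 0.1889). The 2 most abundant, the receptor genes Rara and Rxra had log2 fold changes of -0.15 (edgeR adjusted p = 0.6825) and 0.05 (edgeR adjusted p = 0.9225). Of 17 genes of limb position and limb muscle identity, 8 were tested and 1 fell, where 0.615% of all genes did. This was Six4, a homeobox gene of muscle precursors, at 42.3, 43.9 and 42.8 CPM in KO libraries and at 62.5, 70.1 and 58.4 CPM in control libraries (log2 fold change -0.56, SE 0.12, edgeR adjusted p = 0.01704). Its groups did not overlap, and the call was lost in 5 of 16 alternatives, where the adjusted p reached 0.135. Summed over the limb list, levels were 127 to 155 CPM in KO libraries and 159 to 180 CPM in control libraries, without overlap. Tbx4 and Tbx5, chosen after their values were seen, mark the hindlimb and the forelimb. Tbx4 had 16, 18 and 22 counts in KO libraries, against 27, 21 and 22 in control libraries, and Tbx5 had 3, 0 and 0 counts in KO, against 0, 1 and 0 in control. Pitx1, another limb position gene of the list, had only 2, 0 and 3 counts in KO, against 4, 1 and 2 in control. The limb is not named in the labels and was not tested here. The ParaHox and Evx genes, the nearest relatives of the Hox genes, were tested for 0 of 8 members and summed to 0.391 to 2.39 CPM in KO libraries and to 0 to 0.20 CPM in control libraries, KO library 1 being the highest.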

How the data were processed

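Protocols in the labels describe removal of ribosomal RNA from 400 ng of RNA and paired reads of 75 bases. They name both a stranded TruSeq kit and a SMARTER kit, and which made these libraries is not settled. The submitters' processing notes list STAR, Salmon, DESeq2 1.34.0 and GRCm38, with strand setting and annotation not given in the sources used here. Values are raw counts per gene as the authors deposited them, all whole numbers, and whether they are rounded estimates is unknown.

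Symbols were matched for 55141 of 55487 genes. The test was edgeR 4.0.16 (quasi-likelihood, robust, TMM, default low-count filter, two-sided, Benjamini-Hochberg over 11224 genes, threshold 0.05) in R 4.3.3, and CPM values use TMM. The procedure was tested on simulated data. Exon lengths and coordinates came from GENCODE M21, and length was the union of annotated exons. Intervals are exact 95% Poisson ratios. No library was a copy of another (the lowest chi-square per degree of freedom within a group was 6.04). P-values set the difference between the groups against the spread between these libraries, which the fit estimates with help from all genes tested.

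Members of the Hox set, gene lists and the naming rule (members by value at 10 or more counts, passing or most abundant genes of each list, marker lists otherwise by their sums, and flanking genes) were chosen with earlier results of these data known. The values of 1 member are not reported here. Alternatives were DESeq2 size factors, upper quartile factors, library totals, no filter, a minimum of 1 CPM, DESeq2 1.42.0, limma-voom (limma 3.58.1), a replicate block, removal of structural and mitochondrial RNA, and leaving out each library. Leaving out KO library 1 and control library 3 together was chosen after seeing the data. Python 3.11.15, pandas 2.3.3, SciPy 1.17.1 and matplotlib 3.10.9 were used elsewhere.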

Additional observations from a re-analysis of the deposited data

How the results depend on the processing

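No Hox gene passed the threshold under any of the 16 alternatives. Hoxa7, Hoxa9, Hoxa10, Hoxc10 and Hoxc11 kept a negative log2 fold change in all 16, with Hoxa9 between -0.80 and -0.52. The lowest adjusted p values were 0.07986 for Hoxc11 and 0.08584 for Hoxa9. The count of all genes called, 318, was 511 without a filter, 184 with DESeq2 and 200 with limma-voom, and it ran from 152 (without KO library 1) to 345 (without control library 3) when 1 library was left out, with 180 without KO library 2 and 157 without control library 2. In their deviations from the group means, same-numbered libraries correlated at 0.142, -0.0925 and -0.0615, and other pairs at -0.25 to 0.286. With 3 libraries per group this check cannot show whether replicate numbers pair the libraries. The replicate block gave 247 genes and 0 Hox genes.

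Fold changes near 0 changed sign. Hoxc6 was -0.046 with library totals, -0.026 without a filter, -0.030 with DESeq2 and -0.10 without KO library 1 and control library 3 together, and ran from -0.45 to 0.25 with 1 library left out. Hoxd8 was -0.0036 with DESeq2 size factors, -0.053 with library totals, -0.025 without a filter, -0.00011 at a minimum of 1 CPM and -0.017 with DESeq2, and ran from -0.30 to 0.23 with 1 library left out. Leaving out 1 library also gave -0.051 to 0.22 for Hoxc9, -0.021 to 0.26 for Pknox1, -0.087 to 0.28 for Pknox2, -0.29 to 0.022 for Rara and -0.10 to 0.16 for Rxra, which was -0.016 with library totals. Without KO library 1 and control library 3 together, Pknox2 was -0.13, Rara 0.017 and the log2 ratio of the HoxB sum -0.39. The cause of these changes was not tested. The log2 ratio of the HoxA sum stayed between -0.77 and -0.48 and the median of the 8 tested Hox genes between -0.52 and -0.42. The 31 members below the default filter were tested only in some alternatives, 39 Hox genes in all without a filter, 15 with DESeq2 and 13 at a minimum of 1 CPM, and 0 were called.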
